A study of Mus musculus with 15 samples.

Results

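The nuclear genes of oxidative phosphorylation were taken here as the 97 autosomal protein-coding genes, of 20665 in the reference table, whose mm10 symbols start with Nduf, with Sdh followed by a to d, with Uqcr, with Cox4 to Cox8, or with Atp5. They comprise 7 core subunits, 30 accessory subunits and 8 assembly factors of complex I, 4 subunits and 4 assembly factors of complex II, 8 genes of complex III, 19 of complex IV and 17 of complex V. Chromatin accessibility at these genes was read from ATAC-seq peak lists of mouse CD4+ T cells. ATAC-seq cuts open DNA with the Tn5 transposase, and a peak marks a stretch where sequenced fragments pile up. The cells were IRF5+/+ (wild type) or IRF5-/- (knockout for the transcription factor Irf5), and each genotype was profiled untreated (0 h) and after 72 h of activation in vitro. The untreated groups held 4 wild-type and 3 knockout libraries, and the activated groups 4 libraries each. The strain, the age of the animals, the agent used for activation and any control alleles are not given in the sources used here. Whether the libraries of a group stem from different mice or cultures is not given either, and p-values then reflect library-to-library spread that may be technical.

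Oxidative phosphorylation passes electrons from NADH through complex I, or from succinate through complex II, to ubiquinone, complex III and cytochrome c, and complex IV hands them to oxygen. The protons pumped on the way drive complex V, the ATP synthase. Most subunits are encoded in the nucleus and a few in mitochondrial DNA, so that complexes I, III, IV and V draw on both genomes. The nuclear factors NRF1, GABPA (an ETS protein) and YY1 are known to bind promoters of many of these genes. Resting T cells rely largely on oxidative phosphorylation, and activated T cells raise both glycolysis and mitochondrial mass.

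After duplicates were removed, the libraries held 20.5 M to 29.0 M (mega) fragments, and their lists held 29994 to 69086 peaks. At 0 h the lists held 29994 to 47790 peaks, and at 72 h 55519 to 69086. Mean fragment length was 170.5 bp in the wild type at 0 h, 153.0 bp in the knockout at 0 h, 156.2 bp in the wild type at 72 h and 148.2 bp in the knockout at 72 h. Knockout replicate 3 at 0 h stood apart: its median pileup over all regions was 1.80 per M fragments against 3.85 to 5.07 in the other 0 h libraries. Both of the stronger regions at Irf5 were called in all 8 activated libraries of either genotype, so these peaks do not check the knockout label. All 9 CD4 T cell markers (Cd4, Cd3e, Cd3d, Cd3g, Cd28, Lck, Cd5, Thy1 and Bcl11b) had a peak in every 0 h library, and Thy1 alone lacked one in some 72 h libraries. Of 8 B cell markers 4 to 5 had a peak in a library, with Cd79a, Pax5, Ebf1 and Blnk in all 15 libraries and Cd79b and Ms4a1 among those at none. Of 8 myeloid markers 3 to 5 had one, with Itgam, Spi1 and Cebpb in all 15 libraries and Lyz2 and Adgre1 at none. The summed pileup of the B cell markers was 8.52 to 11.2 per M in the wild type at 0 h, 4.28 to 9.45 in the knockout at 0 h, 7.47 to 9.65 in the wild type at 72 h and 6.49 to 7.43 in the knockout at 72 h. Of 8 CD8 T and NK cell markers 2 to 5 had a peak, with Cd8b1 and Klrd1 in all 15 libraries and Klrb1c and Ncr1 at none. Klrk1 had a peak in 8 of 8 activated libraries and 0 of 7 untreated ones, and Cd8a in 1 of 8 and 6 of 7. Their summed pileup was 2.26 to 7.69 per M at 0 h and 6.30 to 10.7 at 72 h, and that of the CD4 T cell markers was 29.1 to 75.9 at 0 h and 19.98 to 28.3 at 72 h. The part of these cells in the changes below was not tested. In these bulk libraries a change in the share of cells with an open site and a change in its openness per cell cannot be told apart.

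Merging the 15 lists gave 83743 regions called in at least 2 libraries, of which 156 lay within 1 kb of a member gene. Peaks were found at 92 of the 97 genes. The 5 genes without any were Cox6a2, Cox8b, Cox8c, Ndufb4b and Ndufb4c. Of the 156 regions, 97 (62.2%) were called in all 15 libraries, against 25.3% of all regions, 78.0% of regions that overlap a promoter window and 77.9% of regions at cytosolic ribosomal protein genes, and 59 in fewer. For 90 genes the strongest region was among those called in every library. For Cox4i2 and Cox7b2 it was not: the Cox4i2 region was called in 7 libraries, and the 2 Cox7b2 regions in 5 and 2. One region was found at 57 genes and several at 35, with a maximum of 11 at Ndufaf2, a gene of 106064 bp that encodes a complex I assembly factor.

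Nearly all strong regions were promoters. A window of 250 bases before to 50 bases after a start site was listed by RefSeq (GRCm38.p6) for 79 of the 97 genes. Of the 76 genes with such a window and a strongest region called in all libraries, 75 had that region over their own window. The peak summit lay at a median of -28 bp from the start site (interquartile range -113.5 to 6.5 bp). The exception was Ndufb6, whose strongest region lay 9577 bp away near Smim27 and Topors. In 23 of the 75 genes (30.7%) the same region also covered the start site of a gene on the opposite strand. Of the 7818 promoter regions called in every library, 764 (9.77%) covered start sites on both strands. The first share counts genes and the second counts regions, where a region shared by 2 genes counts once. The shares are thus in unlike units, and an excess at member genes cannot be read from them. Opposite-strand pairs at member genes were Atp5j with Gabpa (the gene of the ETS factor), Sdhd with Timm8b, Sdha with Ccdc127, Atp5c1 with Kin, Ndufb5 with Mrpl47, Ndufa7 with Rps28 and Uqcrh with Lrrc41. For these a change in pileup cannot be assigned to one of the 2 genes.

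Promoter bases of 11 selected genes are shown 5′ to 3′ on the gene's strand, from RefSeq (GRCm38.p6). They were not chosen by the accessibility results alone. Only bases before a start site and outside the bounds of every annotated gene are given, and capitals mark matches to the NRF1, ETS, YY1 or CREB patterns. Atp5c1 had the largest fall relative to the library median and shares a short gap with Kin (chr2:10080511-10080550). Uqcrfs1 also fell (chr13:30545317-30545566), and Ndufb6 rose most (chr4:40279422-40279671). Ndufb4 (chr16:37654369-37654618) and Cox6a1 (chr5:115348959-115349208) hold several NRF1 matches. Sdha (chr13:74350241-74350316) and Sdhd (chr9:50603850-50603900) are promoters shared with a neighbour. Atp5g1 (chr11:96075695-96075881) and Atp5g2 (chr15:102671048-102671297) encode the same mature subunit c, and Cox8a (chr19:7217617-7217866, open in all libraries) and Cox8b (chr7:140900447-140900696, no peak) encode the widespread and the muscle isoform of one subunit. All 11 lie on the minus strand.
Atp5c1: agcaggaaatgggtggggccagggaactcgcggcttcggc
Uqcrfs1: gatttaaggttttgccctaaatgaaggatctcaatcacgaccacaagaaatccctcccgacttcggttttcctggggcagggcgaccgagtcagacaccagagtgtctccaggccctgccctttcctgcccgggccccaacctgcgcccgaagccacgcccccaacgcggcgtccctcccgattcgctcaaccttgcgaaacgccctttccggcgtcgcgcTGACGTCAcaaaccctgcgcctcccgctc
Ndufb6: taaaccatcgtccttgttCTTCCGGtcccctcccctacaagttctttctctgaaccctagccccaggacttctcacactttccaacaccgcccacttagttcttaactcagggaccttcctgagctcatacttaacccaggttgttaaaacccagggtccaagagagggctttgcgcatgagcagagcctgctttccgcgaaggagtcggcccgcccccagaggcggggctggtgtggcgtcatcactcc
Ndufb4: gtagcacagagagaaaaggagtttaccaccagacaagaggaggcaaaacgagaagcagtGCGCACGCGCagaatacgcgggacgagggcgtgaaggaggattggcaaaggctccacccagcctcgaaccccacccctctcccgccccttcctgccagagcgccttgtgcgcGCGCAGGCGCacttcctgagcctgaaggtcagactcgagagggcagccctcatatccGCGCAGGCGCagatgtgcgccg
Cox6a1: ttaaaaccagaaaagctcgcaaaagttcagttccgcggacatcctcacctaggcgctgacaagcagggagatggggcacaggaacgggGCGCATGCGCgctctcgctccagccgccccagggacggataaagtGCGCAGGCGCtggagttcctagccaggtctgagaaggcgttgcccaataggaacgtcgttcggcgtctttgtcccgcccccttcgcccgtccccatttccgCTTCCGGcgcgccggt
Sdha: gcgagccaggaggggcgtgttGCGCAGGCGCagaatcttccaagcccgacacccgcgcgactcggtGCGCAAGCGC
Sdhd: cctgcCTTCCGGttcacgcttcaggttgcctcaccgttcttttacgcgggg
Atp5g1: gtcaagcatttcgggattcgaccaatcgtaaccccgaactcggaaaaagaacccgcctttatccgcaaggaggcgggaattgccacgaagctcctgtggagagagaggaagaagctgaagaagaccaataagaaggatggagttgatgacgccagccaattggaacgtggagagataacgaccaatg
Atp5g2: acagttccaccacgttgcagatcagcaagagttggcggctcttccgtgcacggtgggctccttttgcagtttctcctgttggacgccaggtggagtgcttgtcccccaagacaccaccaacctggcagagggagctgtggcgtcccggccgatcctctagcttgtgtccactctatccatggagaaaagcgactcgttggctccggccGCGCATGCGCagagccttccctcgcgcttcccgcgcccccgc
Cox8a: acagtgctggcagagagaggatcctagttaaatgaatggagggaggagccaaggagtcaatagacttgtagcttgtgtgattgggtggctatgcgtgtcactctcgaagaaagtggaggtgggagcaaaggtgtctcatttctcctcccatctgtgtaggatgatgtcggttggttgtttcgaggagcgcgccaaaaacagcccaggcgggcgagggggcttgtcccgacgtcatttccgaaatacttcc
Cox8b: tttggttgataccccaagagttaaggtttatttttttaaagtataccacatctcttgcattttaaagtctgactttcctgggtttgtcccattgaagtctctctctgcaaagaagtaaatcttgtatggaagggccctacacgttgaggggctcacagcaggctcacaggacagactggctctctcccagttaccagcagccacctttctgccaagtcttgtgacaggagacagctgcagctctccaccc

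In these runs Ndufb4 has 3 NRF1 matches, Cox6a1 and Sdha have 2 each, and Atp5g2 has 1. Cox6a1, Ndufb6 and Sdhd have 1 ETS match each, Uqcrfs1 has 1 CREB match, and Atp5c1, Atp5g1, Cox8a and Cox8b have none of the 4 patterns. The runs leave out part of each window. Not wholly inside the runs, the windows also hold NRF1 matches at Atp5c1 and Sdhd and an ETS match at Cox8a. Over the full 300-base windows 8 patterns were searched on both strands, none of which contains another. NRF1 (GCGCA, 1 base of any kind, GCGC) was present in 26.2% of the 84 member windows, against 6.55% of 20085 windows of all genes. Among the 9868 open windows, which overlap a region called in all 15 libraries, its share was 12.1%. ETS (CCGGAAG) was present in 26.2%, 11.9% and 21.1%, and YY1 (AAGATGGC) in 13.1%, 3.06% and 4.996%. SP1 (GGGCGG) was present in 46.4%, 47.0% and 69.6%. CREB (TGACGTCA) was present in 4.76%, 2.30% and 3.73%, the CCAAT box of NFY (CCAAT) in 40.5%, 38.1% and 38.7%, and the E-box (CACGTG) in 8.33%, 7.89% and 10.8%. The IRF pattern (GAAA, 2 bases of any kind, GAAA) was found in 2 member windows, those of Ndufa9 and Ndufs3 (2.38%), against 3.38% of all windows and 2.90% of open ones. Median GC content was 58.7% in member windows, 57.0% in all windows and 62.3% in open ones. These are matches of letters, given as shares of windows with no test.

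The first comparison asked how accessibility at these genes differed between activated and untreated cells. The measure was the highest pileup in a region, a summit height in fragments divided by the library's filtered fragments in M (below, per M), which is not divided by length, and 72 h was compared with 0 h over both genotypes by limma on log2 values. The median over the 97 member regions was 6.83, 7.93, 8.98 and 9.26 per M in the wild-type libraries at 0 h, and 6.85, 3.10 and 8.38 in the knockout libraries at 0 h. It was 4.18, 4.54, 4.13 and 3.34 in the wild type at 72 h and 3.43, 3.55, 3.59 and 3.46 in the knockout at 72 h. All activated libraries lay below all untreated ones except knockout replicate 3, which lay below every activated library. Per M, 82 member regions fell, 1 rose and 14 did not pass (adjusted p under 0.05), where the background was 65.4% of all 21176 regions lower and 8.89% higher. Of promoter regions, 77.1% were lower and 3.29% higher. The median change was -0.73 (log2) for members, -0.66 for all regions and -0.74 for the 7818 promoter regions, so most of the fall was shared by all regions.

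**Figure D1:**
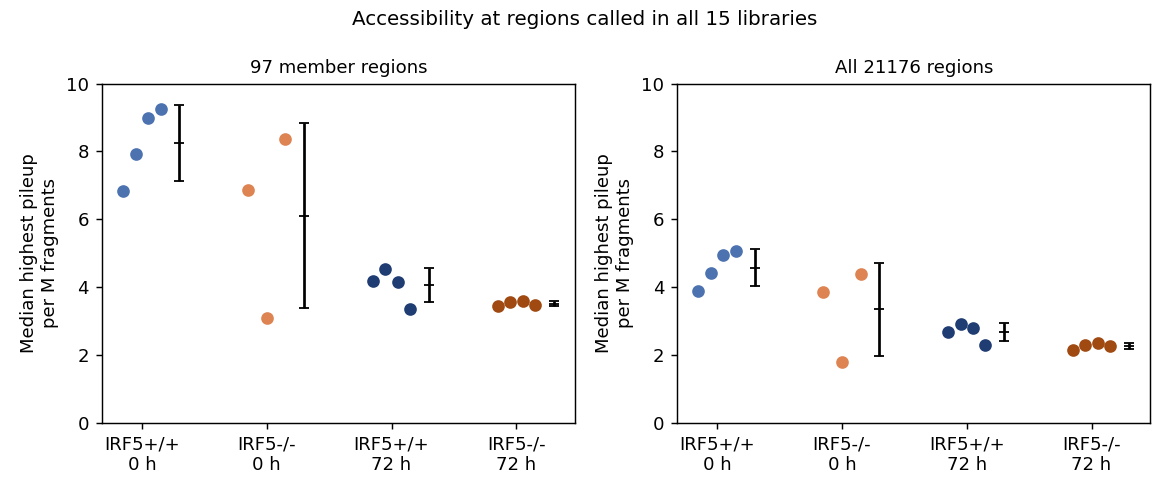
Median highest pileup per M fragments in each library (points) with the group mean and SD (bar), for the 97 member regions called in all libraries (left) and for all 21176 such regions (right). In both panels the 72 h libraries sit below the 0 h libraries other than knockout replicate 3, at 3.34 to 4.54 for the members and 2.14 to 2.90 for all regions.

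Changes were therefore read relative to the median of each library, which removes a shift common to all regions. On that scale 41 member regions (42.3%) fell, 17 (17.5%) rose and 39 did not pass, against 39.1% lower and 34.4% higher over all regions. Of promoter regions, 45.4% were lower and 24.9% higher. With quantile normalization 30 member regions fell and 26 rose, against 36.1% and 32.5% of all regions, so the split depends on the scaling. Without knockout replicate 3 at 0 h, 39 fell and 18 rose relative to the median. The member median was -0.11, beside -0.04 for all regions and -0.12 for promoter regions. The interquartile range of the relative change over the members was 0.44, against 0.79 for all regions and 0.53 for promoter regions. On all 3 scales 28 member regions of 28 genes fell (31.4% of all regions did), and 15 rose both relative to the median and after quantile normalization (28.0% of all regions did). Of the 58 calls on the relative scale, 50 held in each of 15 fits that left out 1 library. The calls lost in some of these fits were those of Atp5j and Atp5g2 (10 fits each), Cox6b2 (7), Cox7a2l (6), Ndufa4 (4), Cox5a (2: knockout replicate 4 at 0 h and knockout replicate 2 at 72 h), Ndufa8 (1: knockout replicate 1 at 0 h) and Uqcrc1 (1: knockout replicate 1 at 72 h). As a ratio, the member median was 1.76 to 1.83 times the median of all regions in the wild type and 1.72 to 1.91 times in the knockout at 0 h, and 1.46 to 1.56 and 1.53 to 1.60 times at 72 h. The number of peaks per library rose and mean fragment length was shorter at 72 h within each genotype, and the part of these in the changes was not tested.

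**Figure D2:**
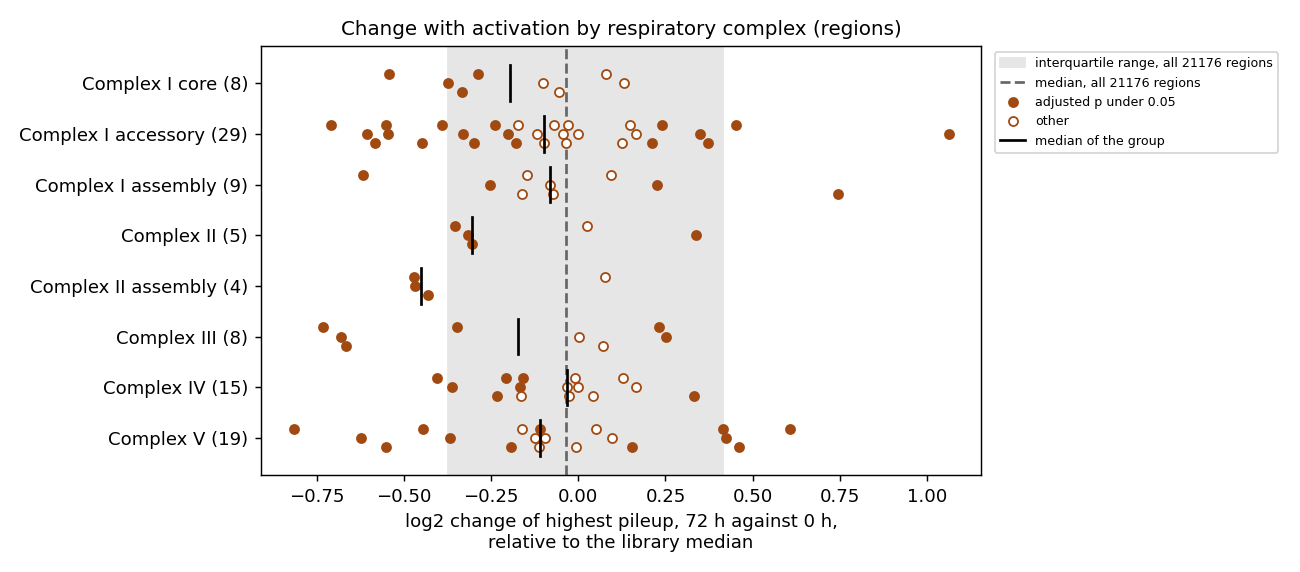
Change of highest pileup at 72 h against 0 h relative to the library median (log2, horizontal axis) for each of the 97 member regions, by complex, with the number of regions in parentheses. Filled points had an adjusted p under 0.05, black bars are medians, and the grey band and dashed line are the interquartile range and median of all 21176 regions. Group medians lie between -0.45 (complex II assembly factors) and -0.03 (complex IV).

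Over all regions 39.1% fell and 34.4% rose relative to the median, which is the background for the counts by complex below. Of promoter regions, 45.4% fell and 24.9% rose. Complex I takes electrons from NADH. Of its core subunits, which carry the flavin and the iron-sulfur clusters, 4 of 8 regions fell relative to the median and none rose. They included those of Ndufs1 (-0.54 ± 0.078 SE), Ndufs8 (-0.37 ± 0.063) and a second region of Ndufv2 near Ankrd12 (-0.29 ± 0.062). Of 29 regions at accessory subunits 12 fell and 6 rose. The falls were led by Ndufb3 (-0.71 ± 0.087, adjusted p = 5.2e-10), a membrane-arm subunit whose promoter region is shared with Fam126b, Ndufv3 (-0.61 ± 0.069) and Ndufb2 (-0.58 ± 0.074). Ndufb3 pileup was 5.53 to 6.93 per M in the wild type at 0 h, 2.37 to 6.19 in the knockout at 0 h, 1.94 to 3.01 in the wild type at 72 h and 1.497 to 2.02 in the knockout at 72 h. Only knockout replicate 3 at 0 h overlapped the activated libraries on this scale.

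The rises at accessory subunits were at the Ndufb6 start site and at Ndufs4 (0.45 ± 0.086), Ndufc2 (0.37 ± 0.11), Ndufab1 (0.35 ± 0.071), Ndufa13 (0.24 ± 0.073) and Ndufa8 (0.21 ± 0.078). These were named after their values were seen. Ndufab1 encodes the mitochondrial acyl carrier protein, and Ndufs4 a subunit whose loss causes Leigh syndrome. Per M the 5 genes other than Ndufb6 did not rise, with changes between -0.41 and -0.17. Of the 9 regions at assembly factors 2 fell and 2 rose. Ndufaf6 fell (-0.62 ± 0.069) and Ndufaf5, an arginine hydroxylase of the core subunit Ndufs7, rose (0.23 ± 0.065). At Ndufaf2 an inner region 101480 bp from the start site rose (0.74 ± 0.12), while the promoter region, shared with Ercc8, was at -0.08 ± 0.068.

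Ndufb6, a membrane-arm subunit, had the largest relative rise and the only rise per M. The start-site region (chr4:40278783-40280052) reached 3.26, 3.62, 4.49 and 4.39 per M in the wild type at 0 h and 3.25, 1.72 and 3.99 in the knockout at 0 h. At 72 h it reached 4.99, 4.79, 5.09 and 4.78 in the wild type and 3.83, 4.12, 3.97 and 4.63 in the knockout. Divided by the library median, all 0 h libraries lay between 0.820 and 0.957 and all 72 h libraries between 1.65 and 2.08, with no overlap. The change was 1.06 ± 0.076 relative to the median, which is 2.09-fold (adjusted p = 2.5e-17), and 0.44 ± 0.20 per M (adjusted p = 0.035). The per-M call was lost without wild-type replicate 1 or 2 at 0 h, wild-type replicate 1 or 3 at 72 h, or knockout replicate 2 or 4 at 72 h. The stronger region in reach of Ndufb6, near Smim27 and Topors, was at -0.12 ± 0.062 and did not pass on the relative scale. Ndufb6 was singled out after its values were seen.

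**Figure D3:**
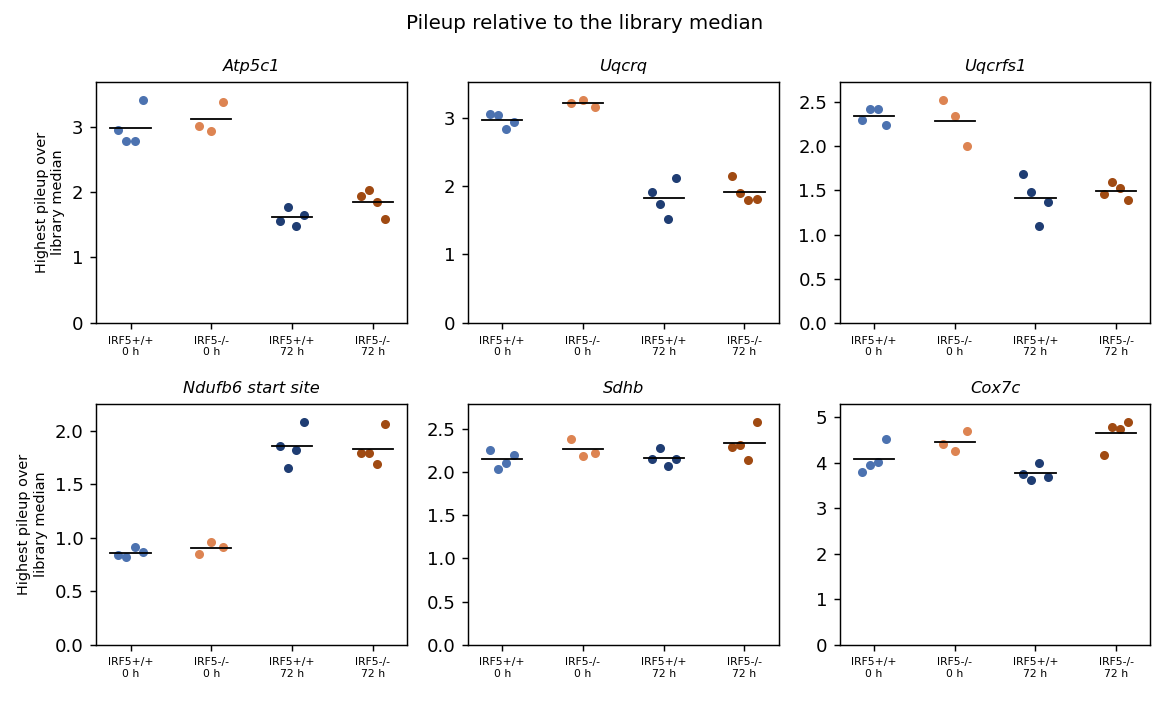
Highest pileup divided by the library's median over all 21176 regions, in each library (points) with the group mean (line). At Atp5c1, Uqcrq and Uqcrfs1 every 72 h library lies below every 0 h library, at the Ndufb6 start site every 72 h library lies above (1.65 to 2.08 against 0.820 to 0.957), and at Cox7c knockout libraries lie above wild-type ones at 72 h.

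Complex II, succinate dehydrogenase, is also an enzyme of the citric acid cycle and is encoded wholly in the nucleus. Sdha, the flavoprotein, had 10.4, 11.6, 13.8 and 13.8 per M at its promoter region (chr13:74349632-74350781) in the wild type at 0 h and 9.96, 4.36 and 12.1 in the knockout at 0 h. At 72 h it had 5.03, 6.06, 5.78 and 4.28 in the wild type and 4.89, 5.49, 5.81 and 4.82 in the knockout. Again only knockout replicate 3 at 0 h lay among the activated libraries. The fall was 0.93 ± 0.19 per M on the log2 scale, and the relative change was -0.31 ± 0.059 (adjusted p = 1.0e-05). The membrane anchors Sdhc (-0.32 ± 0.069) and Sdhd (-0.35 ± 0.073) fell alike on the relative scale. After quantile normalization Sdha (-0.12) and Sdhc (-0.13) no longer passed.

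Sdhb, the iron-sulfur subunit, had 8.75, 9.0, 10.4 and 11.1 per M in the wild type at 0 h, 9.18, 3.94 and 9.74 in the knockout at 0 h, 5.76, 6.60, 5.78 and 4.94 in the wild type at 72 h and 4.89, 5.33, 5.04 and 5.80 in the knockout at 72 h. Its relative change was 0.02 ± 0.060 (adjusted p = 0.72). An inner region of Sdha, 8974 bp from the start site, rose relative to the median (0.34 ± 0.096). Of the 4 assembly factors, the regions of Sdhaf1 (-0.47 ± 0.067), Sdhaf2 (-0.47 ± 0.083) and Sdhaf3 (-0.43 ± 0.062) fell on all 3 scales. Sdhaf4 was at 0.08 ± 0.081.

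Complex III passes electrons from ubiquinol to cytochrome c. Its 8 regions split widely, with 4 lower and 2 higher relative to the median. Uqcrq, a small subunit whose region (chr11:53430315-53431664) is near Gdf9, had 11.9, 13.4, 13.997 and 14.8 per M in the wild type at 0 h and 12.4, 5.85 and 13.8 in the knockout at 0 h. At 72 h it had 5.11, 5.04, 4.25 and 4.86 in the wild type and 4.58, 4.36, 4.23 and 4.07 in the knockout. Every activated library lay below every untreated one. The relative change was -0.73 ± 0.064 (adjusted p = 2.2e-14). Uqcrfs1, the Rieske iron-sulfur protein (-0.68 ± 0.074), and Uqcr10 (-0.67 ± 0.085) fell similarly, and Uqcrh fell less (-0.35 ± 0.063). The 2 large core proteins went the other way: Uqcrc1 rose by 0.23 ± 0.084 and Uqcrc2 by 0.25 ± 0.065 relative to the median, and per M neither passed (-0.39 and -0.37).

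Complex IV, cytochrome c oxidase, reduces oxygen, and several of its nuclear subunits have a widespread and a tissue-restricted isoform. Of its 15 regions 6 fell (40.0%, background 39.1%) and 1 rose (6.67%, background 34.4%) relative to the median. The shares over promoter regions were 45.4% and 24.9%. Among main regions called in all libraries, Cox7c (13.5 per M) and Atp5j (13.4), a complex V gene, had the highest mean pileup over the 15 libraries. Atp5j had the higher mean in both wild-type groups and Cox7c in both knockout groups. The lowest 4 of these regions were those of Cox6b2 (1.10), Atp5l (1.45), Cox6c (1.58) and Cox6b1 (1.70). Cox6c, Atp5l and Cox6b1 are widespread subunits. On the relative scale Cox6b1 was at -0.00 ± 0.12, Cox6c at 0.04 ± 0.12 and Cox7c at -0.03 ± 0.052.

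Of the isoforms known from muscle or testis, Cox6a2, Cox8b and Cox8c had no region, and Cox4i2, the lung isoform, had one called in 0 of 4 wild-type and 2 of 3 knockout libraries at 0 h and in 4 of 4 and 1 of 4 at 72 h. Their widespread partners Cox6a1, Cox8a and Cox4i1 had regions in every library, at means of 4.24, 6.16 and 4.58 per M. Cox7a1, the heart and muscle isoform of subunit 7A, was an exception. Its region (chr7:30183857-30184519) had 4.24, 4.48, 6.63 and 6.06 per M in the wild type at 0 h and 4.59, 2.26 and 5.75 in the knockout at 0 h, and 2.72, 2.58, 2.07 and 2.02 in the wild type and 2.45, 2.06, 1.92 and 2.11 in the knockout at 72 h. It fell relative to the median (-0.41 ± 0.091, adjusted p = 0.00010), whereas the widespread Cox7a2 was at -0.03 ± 0.063 with a mean of 7.43 per M. Cox6a1 fell by 0.36 ± 0.079 and Cox8a by 0.21 ± 0.071 on that scale, and the Cox8a fall was lost after quantile normalization. The testis isoform Cox6b2 had a region in all 15 libraries with a mean of only 1.10 per M. Its relative change was 0.33 ± 0.15 (adjusted p = 0.037), but -0.29 per M and -0.03 after quantile normalization, so it has no stable direction.

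Ndufa4, now counted as a subunit of complex IV, and its hypoxia-inducible relative Ndufa4l2 also both had regions in every library, at means of 7.61 and 3.88 per M. Ndufa4 fell per M by 0.78 ± 0.19 and relative to the median by 0.16 ± 0.064, a call lost without wild-type replicate 1 or knockout replicate 4 at 0 h or without wild-type replicate 2 or knockout replicate 1 at 72 h, and was at 0.03 after quantile normalization. Ndufa4l2 fell by 0.46 ± 0.20 per M, but was at 0.17 ± 0.078 relative to the median and 0.24 after quantile normalization. Its per-M call was lost without any of wild-type replicates 3 and 4 or knockout replicates 1 and 4 at 0 h, or without wild-type replicate 4 or knockout replicate 1 at 72 h.

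**Figure D4:**
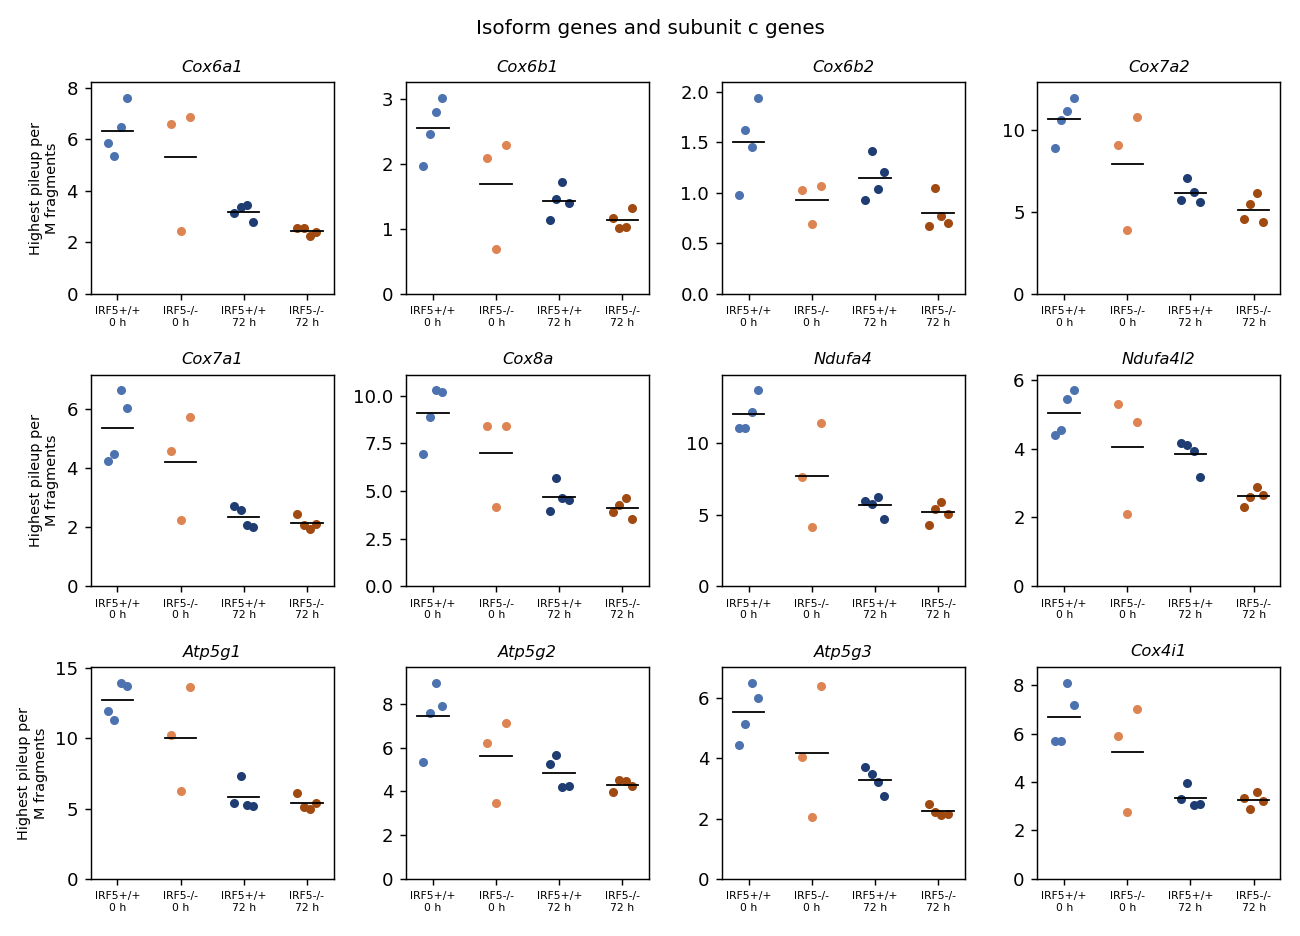
Highest pileup per M fragments in each library (points) with the group mean (line), for isoform genes of complex IV and the 3 subunit c genes. Cox7a1 was at 4.24 to 6.63 in the wild type at 0 h and 1.92 to 2.72 in all activated libraries, while Cox6b2 overlaps between the times.

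Complex V, the ATP synthase, gave the largest fall of all members. Atp5c1 encodes the central stalk subunit gamma, and its promoter region (chr2:10079706-10081010) is shared with Kin. It had 11.4, 12.3, 13.8 and 17.3 per M in the wild type at 0 h and 11.6, 5.28 and 14.8 in the knockout at 0 h. At 72 h it had 4.18, 5.15, 4.13 and 3.77 in the wild type and 4.14, 4.68, 4.35 and 3.56 in the knockout. All untreated libraries, knockout replicate 3 included, lay above all activated ones. The relative change was -0.82 ± 0.065, or 0.568-fold (adjusted p = 1.2e-15), and per M it was -1.44 ± 0.19 (adjusted p = 5.6e-13).

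Of the 19 regions at complex V genes 7 fell (36.8%, background 39.1%) and 5 rose (26.3%, background 34.4%) relative to the median. Over promoter regions the shares were 45.4% and 24.9%. Falls followed at Atp5md (-0.62 ± 0.068), Atp5a1, the subunit alpha (-0.55 ± 0.079), Atp5d, the subunit delta (-0.44 ± 0.069), and Atp5g1 (-0.37 ± 0.069). The catalytic subunit beta, Atp5b, with a mean of 10.2 per M, was at -0.11 ± 0.054 and did not pass. Atp5j, subunit F6, in the region shared with Gabpa, had a mean of 13.4 per M and a relative change of -0.11 ± 0.051 (limma, adjusted p = 0.0498), which was 0.08 after quantile normalization. The relative rises were at Atp5j2 (0.61 ± 0.098), Atp5mpl (0.46 ± 0.086), Atp5e, the subunit epsilon (0.41 ± 0.064), and 2 regions of Atp5g2. Atp5j2 had 2.28, 3.55, 3.03 and 3.52 per M in the wild type at 0 h, 2.86, 1.11 and 3.41 in the knockout at 0 h, 2.88, 3.37, 2.95 and 2.29 in the wild type at 72 h and 2.27, 2.46, 2.77 and 1.87 in the knockout at 72 h. Its values overlapped between the times, so this rise is one against the fall of most other regions.

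The 3 genes Atp5g1, Atp5g2 and Atp5g3 encode the same mature subunit c behind different import sequences. Atp5g1 had 11.96, 11.3, 13.96 and 13.8 per M in the wild type at 0 h and 10.2, 6.27 and 13.7 in the knockout at 0 h, and 5.39, 7.33, 5.25 and 5.21 in the wild type and 6.10, 5.09, 4.99 and 5.43 in the knockout at 72 h. Wild-type replicate 2 stood above the others at 72 h. Atp5g2 had means of 7.46 ± 1.52 (SD, n = 4) and 5.63 ± 1.92 (SD, n = 3) at 0 h and 4.85 ± 0.734 and 4.31 ± 0.258 (SD, n = 4 each) at 72 h. Atp5g3 had 5.53 ± 0.912, 4.18 ± 2.18, 3.30 ± 0.415 and 2.25 ± 0.166 in the same order. Relative to the median Atp5g1 fell, Atp5g2 was at 0.15 ± 0.072 (adjusted p = 0.0496, but -0.47 per M) and Atp5g3 at -0.12 ± 0.085.

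Relative changes with activation are given by motif as medians over genes, with no test. The median was -0.12 in 21 genes with NRF1 and -0.10 in 55 without, -0.10 in 22 with ETS and -0.11 in 54 without, and -0.11 in 11 with YY1 and -0.10 in 65 without. For NFY it was -0.21 in 32 genes with the pattern and -0.05 in 44 without, and for SP1 -0.11 in 37 with and -0.10 in 39 without. The other patterns were in few windows: the median was -0.33 in 4 genes with CREB and -0.11 in 72 without, -0.16 in 6 with the E-box and -0.10 in 70 without, and 0.13 in 2 with IRF and -0.11 in 74 without.

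Peak presence was the second measure, tested by a two-sided exact conditional test stratified by genotype. At 72 h 18 of the 156 member regions were gained (11.5%, background 18.4%) and 4 were lost (2.56%, background 4.65%). Among the regions not called in every library, 30.5% of 59 member regions were gained, beside 24.6% of all. The 18 gained regions lay at 13 genes, 16 of them inside a gene. None overlapped the promoter window of its gene, where one was listed. Present in 8 of 8 libraries after activation and absent from all 7 before it (adjusted p = 0.0040 each) were single regions of Ndufs3, Sdhaf3, Sdhaf4 and Cox7a2, the last outside the gene near Tmem30a, and 2 of Ndufaf2. Gains in 7 of 8 against 0 of 7 (adjusted p = 0.012) were at Ndufa6, Ndufs4, Sdhb and Ndufab1, and a further Ndufab1 region was called in 8 of 8 against 1 of 7. The Ndufaf2 gene also held another gained and 1 lost region. Lost in the full sense, seen in 7 of 7 libraries before activation and in 0 of 8 after it, were inner regions of Ndufa10 and Ndufb1. The Atp5d region near Cbarp was called in 7 of 7 untreated libraries, 2 of 4 activated wild-type and 0 of 4 activated knockout libraries.

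**Figure D5:**
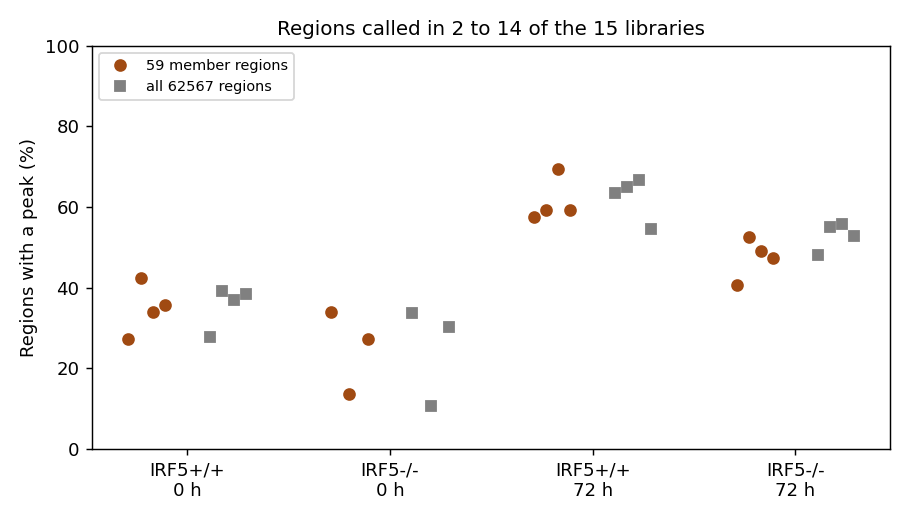
Share of regions with a peak in each library (points), for the 59 member regions and all 62567 regions called in 2 to 14 libraries. The shares rise with activation in both sets, from 13.6% to 42.4% of the member regions at 0 h to 40.7% to 69.5% at 72 h.

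Activated libraries had more peaks, and the part of this in the gains was not tested. The count of gains changed when lists were cut to one length, which drops weak peaks, more of them from activated lists. With the same number of strongest peaks (29994) taken from every library, 6 of 121 member regions were gained and 5 lost, where 14.8% and 14.1% of all regions were. The remaining gains were at Cox7a2, Ndufab1, Ndufaf2, Ndufs3 and Ndufs4. The weakest peak in a list held 7 to 10 fragments, so sites below that height can be open and yet have no peak. The count of lost regions was 2 without any of knockout replicates 1 and 4 at 0 h, wild-type replicate 1 at 72 h or knockout replicates 1 and 3 at 72 h.

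A further comparison asked whether the loss of Irf5 changed accessibility at these genes. No region was called by presence, among members or among all regions (0.0%). This count cannot show that presence was unaffected by genotype. With these library numbers the exact test cannot go below an unadjusted p of 0.000408, even for a complete split by genotype. As 83743 regions were adjusted together, such a region passes only if many others reach that p as well. At an unadjusted p under 0.05 there were 0 of 156 member regions and 1168 of 83743 in all, and the lowest unadjusted member p was 0.0918. Per M, limma called 0 member regions at 0 h, 0 at 72 h and 0 for the interaction of genotype and activation, with a background of 0.0% in each. At an unadjusted p under 0.05 these were 32, 4 and 1 of the 97. The median member difference, knockout minus wild type, was -0.51 at 0 h and -0.20 at 72 h, beside -0.52 and -0.22 for all regions. The 0 h result rested on single libraries. Without knockout replicate 4 at 0 h, 89 member regions were lower in the knockout (81.5% of all regions were), and without knockout replicate 3 the member median was -0.11 and 0 passed. Without that replicate 3, 3 member regions were lower at 72 h (4.96% of all).

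Relative to the library median the member medians were 0.03 at 0 h and 0.04 at 72 h. One member was higher in the knockout at 72 h (0.94% of all regions were higher and 0.264% lower), and none was called at 0 h (0.0331% higher, 0.0% lower) or for the interaction (0.0% higher, 0.00472% lower). It was Cox7c, which encodes a small widespread subunit of complex IV. Its pileup over the library median was 3.74, 3.62, 3.99 and 3.69 in the wild type and 4.17, 4.79, 4.75 and 4.90 in the knockout at 72 h, with no overlap. The difference was 0.30 ± 0.071 (limma adjusted p = 0.022). Per M the values were 10.01, 10.5, 11.1 and 8.48 against 8.90, 11.02, 11.1 and 10.99, which overlap, and the difference was 0.07 ± 0.25 (adjusted p = 0.91). At 0 h the relative difference was 0.13 ± 0.076 and the interaction had an adjusted p of 0.66, so the difference is not shown to be confined to activated cells. The Cox7c call was lost after quantile normalization (0.496% of all regions higher, 0.335% lower) and without any of wild-type replicates 2 and 4 or knockout replicates 2, 3 and 4 at 72 h.

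Other genes of the pathway, outside the symbol rule, were counted on the relative scale, where 39.1% of all regions fell and 34.4% rose. Of 37 regions at 34 further assembly factors 21 fell and 5 rose with activation (median -0.20). Of 17 regions at genes that copy or express mitochondrial DNA 7 fell and 4 rose (median -0.08), and of 23 at 16 regulators 12 fell and 6 rose (median -0.11). Both cytochrome c regions fell (median -0.40). Of 3 regions at X-linked subunits 1 fell. For comparison, 60 of 88 regions at cytosolic ribosomal protein genes fell and 6 rose (median -0.26), and of 38 regions at glycolysis genes 13 fell and 17 rose (median 0.09). The difference between these lists was not tested.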

How the data were processed

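Per the submitters' processing notes, the tools were Trim Galore 0.5.0, Bowtie2 2.2.9 (genome mm10), MACS2 and HOMER 4.10.4. Per the file headers, MACS2 2.1.1.20160309 called peaks in each library at a q cutoff of 0.05, using paired reads, no control sample and at most 1 fragment at a position. The deposited pileup is the fragment coverage signal at a summit, and the deposited −log10 q is MACS2's, per the file headers. Per the headers, wild-type replicate 4 at both times came from an alignment numbered 5. The 8 merged or final lists were not used.

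The 15 per-library lists were merged (overlap of 1 bp) into 111393 regions, of which 83743 were called in at least 2 libraries. Regions within 1 kb of gene bounds (RefSeq GRCm38.p6) were assigned to genes. The highest pileup was divided by the filtered fragments (in M) from the header. The 21176 regions called in all 15 libraries were fitted on log2 values, with no pseudocount, by limma 3.58.1 (R 4.3.3, trended variance, 4 group means), and presence was tested by the exact stratified test, whose smallest p is 0.000408. Benjamini-Hochberg adjustment covered all fitted or tested regions, and calls were made under 0.05. The restriction to all 15 libraries leaves out regions that opened or closed fully, which only presence covers. Both tests were run on simulated data without library-wide shifts, and for presence with many complete changes planted. Their behaviour under such shifts, or for presence with few changes, was not checked. Coverage limits weak peaks: depth was 20.5 M to 29.0 M fragments.

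A gene's main region is the one with the highest mean pileup. Named were: up to 8 members per comparison and direction with the lowest p (ties kept), isoform pairs, subunit c genes, Sdha to Sdhd, and the 4 highest and 4 lowest levels. The members and lists were chosen with earlier results of these data known. Alternatives were other scalings, filters, gene distance, the replicate block and leaving out each library. Median centring combined with leaving out a library or with the block was added after the data were seen. Some values of single genes are not reported here.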

Additional observations from a re-analysis of the deposited data

Results flagged for a closer look

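Each group of 4 libraries was searched for a library far from the other 3, at the named regions and for the member summaries. This was 105 searches, not all independent, of which chance flags about 1 in 20, and 7 were found. In the wild type at 72 h, replicate 3 had 138 member regions called against 131 to 132 in the others, and 41 against 34 to 35 of the 59 not called everywhere. These 2 flags are 1 observation, as the counts differ only by the 97 regions called in every library. In that group replicate 2 had 7.33 per M at Atp5g1 (5.21 to 5.39 in the others), and replicate 3 had 1.65 at Cox6c (1.28 to 1.34). Replicate 4, from the alignment numbered 5, had 6.34 at Ndufaf7 (9.81 to 10.4) and 8.24 at Atp5j (10.8 to 11.1). In the knockout at 72 h, replicate 1 had 8.90 per M at Cox7c against 10.99 to 11.1 in the others.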

How the results depend on the processing

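Scaling moved the activation counts most: 1 higher and 82 lower per M, 17 and 41 with library median centring, 26 and 30 with quantile normalization. With regions called in at least 12 libraries 2 were higher. Leaving out 1 library gave 0 to 1 higher and 72 to 94 lower per M, and 15 to 18 higher and 38 to 44 lower with centring. Genotype calls at 72 h became 1 higher with centring. Leaving out 1 library gave 0 to 89 lower at 0 h, 0 to 3 lower at 72 h and, with centring, 0 to 2 higher at 72 h. For presence, equal peak numbers gave 6 gained, and leaving out 1 library gave 13 to 17 gained and 2 to 3 lost. Genotype presence and interaction stayed at 0 under every alternative run. For genotype presence this is limited by the lowest p the exact test can reach.

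Deviations of same-numbered libraries at the 2 times correlated at -0.061 to 0.037 (7 pairs), so no shared deviation was seen. This does not show whether same-numbered libraries have a common origin. With the replicate block the activation pileup counts were 0 higher and 80 lower (16 and 41 with centring), and presence gave 0 gained and 0 lost, in strata of at most 2 libraries.

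Of 31 named regions, these negative changes per M turned sign, that of Cox6b2 not having passed the test. With centring the values were 0.33 for Cox6b2, 0.17 for Ndufa4l2, 0.15 for Atp5g2, 0.0247 for Sdhb, 0.10 for Atp5l, 0.0409 for Cox6c and 0.10 for Ndufaf7. With quantile normalization they were 0.16 for Cox7a2, 0.0260 for Ndufa4, 0.24 for Ndufa4l2, 0.31 for Atp5g2, 0.21 for Sdhb, 0.0796 for Atp5b, 0.28 for Ndufaf7, 0.0810 for Atp5j and 0.15 for Cox7c. The alternative scalings take out the common shift by construction.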
